A study of Arabidopsis thaliana with 4 samples.

Results

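The 10 genes described here are the WRKY transcription factors of groups IIa and IIb on a list of loci. The list follows family membership and not level, but it was chosen with earlier results of these data known. Group IIa holds WRKY18 (AT4G31800), WRKY40 (AT1G80840) and WRKY60 (AT2G25000). Group IIb holds WRKY6 (AT1G62300), WRKY9 (AT1G68150), WRKY31 (AT4G22070), WRKY36 (AT1G69810), WRKY42 (AT4G04450), WRKY47 (AT4G01720) and WRKY72 (AT5G15130). All 10 have a row in the deposited count table, which lists 24904 loci. The libraries are poly(A) RNA-seq of wild-type Arabidopsis thaliana Col-0 plants of 6 weeks, grown in days of 8 h light and 16 h dark. Protoplasts, leaf cells freed of their walls, gave 2 libraries, and whole leaf that was not digested gave 2 libraries. For the protoplasts, fully developed leaves were peeled of their lower epidermis with tape, cut beside the midrib, shaken for 2 h in 1% cellulase and 0.3% macerozyme with 0.6 M mannitol, filtered and washed. The comparison therefore spans wounding, digestion, osmolyte and washing at once, and these cannot be told apart. Whether the whole leaves were peeled too is not stated in the labels, which bears on the epidermis and guard cell values given below. Nothing ties the libraries of a group to separate plants or days, so a p-value here reads the scatter between libraries, and that scatter may be technical. For the hour of collection, the sources used here give no value.

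WRKY proteins bind DNA at the W-box, a short element with the core TTGAC, through a domain with a conserved heptapeptide and a zinc finger. Proteins of group IIa carry a leucine zipper and form complexes with themselves and with each other. In Arabidopsis leaves WRKY18 and WRKY40 are known as fast pathogen- and wound-responsive genes that hold back parts of the immune and abscisic acid responses, and WRKY60 is known as a gene whose promoter WRKY18 and WRKY40 bind. Group IIb is less uniform: WRKY6 acts in senescence, defence and phosphate homeostasis, WRKY42 in phosphate homeostasis, WRKY36 in light signalling through HY5, and WRKY72 in basal immunity.

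WRKY18, WRKY40 and WRKY6 were from 41.0-fold to 144-fold higher in protoplasts than in leaf, and WRKY60, the nearest relative of WRKY18 by coding sequence among the 10, was 6.52-fold lower. Of the 10 members, 5 rose, 1 fell, 1 did not pass the test and 3 had too few counts to be tested (edgeR quasi-likelihood test, Benjamini-Hochberg adjusted p under 0.05 over 20200 genes). Calls were common in this comparison: 39.8% of all tested genes rose and 40.7% fell, 80.5% together. Rising by itself therefore does not set the members apart. A rise of at least 16-fold, which 4 members showed, WRKY31 among them, was reached by 7.97% of tested genes. It was also reached by 16 of the 47 other WRKY genes tested, so it is not particular to these members. Protoplast and leaf libraries did not overlap for 6 of the 7 tested members, against 90.3% of all tested genes. The tested members include WRKY31, which had 1 and 2 counts in leaf and passed the filter on low counts through its protoplast counts, so a count over the tested members is a description only. The sizes depend on the scaling: with library size only, the median over all tested genes moved to -0.85 on the log2 scale, against -0.04 here, and the members moved with it, WRKY18 to 6.37, WRKY40 to 4.55, WRKY6 to 4.99, WRKY31 to 3.85, WRKY47 to 1.74 and WRKY60 to -3.51.

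The DNA next to the group IIa genes holds the element that their own products bind, and these stretches are shown because they set the group IIa genes apart from the group IIb members in sequence. They lie upstream of the annotated gene start, on the plus strand as the genes do, and were read from the RefSeq assembly TAIR10.1 by locus; for the build behind the counts, the sources used here name none. Each is written 5′ to 3′ with 20 flanking bases on either side, and capitals mark the W-boxes TTGACC and TTGACT, which read GGTCAA and AGTCAA when they lie on the other strand.
WRKY18, chr4:15382021-15382082: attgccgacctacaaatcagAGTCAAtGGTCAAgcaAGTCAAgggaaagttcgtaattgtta
WRKY40, chr1:30382728-30382779: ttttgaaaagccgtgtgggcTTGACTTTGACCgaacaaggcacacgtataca
WRKY60, chr2:10629005-10629063: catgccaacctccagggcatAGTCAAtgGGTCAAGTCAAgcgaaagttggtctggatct

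WRKY18 and WRKY60 each had 3 W-boxes on the opposite strand, with the C form between the T forms, 736 to 715 bases before the start of WRKY18 and 637 to 619 bases before that of WRKY60. In WRKY60 the last 2 boxes overlap by 1 base. WRKY40 had 2 boxes joined end to end on its own strand, 813 to 802 bases before the start. A cluster, taken as at least 2 W-boxes within 25 bases in the 1000 bases before the gene start, was found at 3 of the 10 members, at 5 of the 57 other WRKY genes in the count table and at 916 of 22854 promoters, 4.01%; the limit of 25 bases was chosen after the positions were seen. At least 1 W-box on either strand was present in 9 of 10 members within 1000 bases, the exception being WRKY42, and in 67.3% of all promoters, so most promoters hold one. Within 250 bases 3 of 10 members had a W-box, against 28.4% of all promoters. The G-box CACGTG was found within 1000 bases of WRKY6, WRKY31 and WRKY47, 3 of 10 members, against 15.6% of all promoters. A match is a description of the sequence, not of binding, which was not measured, and the clusters lie before a gene that fell as well as before genes that rose.

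**Figure D1:**
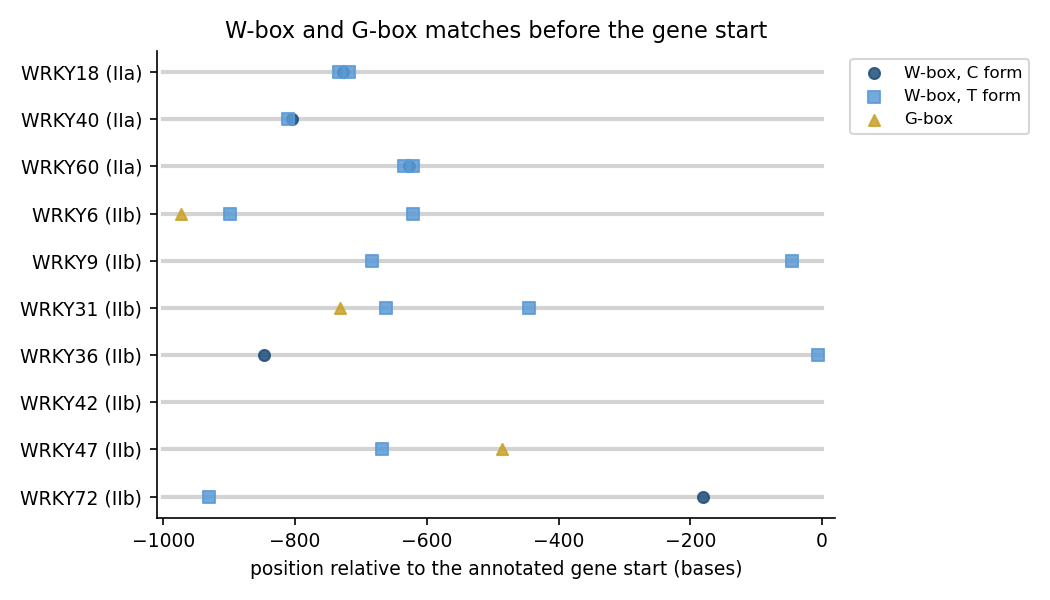
Matches to the W-box (TTGACC, circles, and TTGACT, squares) and to the G-box (triangles) on either strand in the 1000 bases before the annotated start of each member, with distance from the start in bases on the x axis. The group IIa genes WRKY18, WRKY40 and WRKY60 have their matches side by side, while those of the group IIb genes lie apart and WRKY42 has none.

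A feature shared by all 10 members lies in the coding sequence. All 10 encode the signature heptapeptide once, as do 43 of the 57 other WRKY genes with a row in the count table. In all 10 an intron follows 32 codons after the first codon of that heptapeptide. Among the 57 other WRKY genes only WRKY61 has an intron there. The 21 bases that encode the heptapeptide are shown for the 6 members called in the test, because they show how the same peptide is written in genes that moved in different directions. They are in coding orientation, from TAIR10.1, and capitals mark bases that differ from WRKY18.
WRKY18: tggaggaaatacggacaaaag
WRKY40: tggaggaaataTggacaGaaA
WRKY60: tggaggaaatacggGcaaaag
WRKY6: tggagAaaataTggCcaGaag
WRKY31: tggagAaaGtacggacaaaaA
WRKY47: tggagAaaatacggTcaGaaA

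WRKY60 differed from WRKY18 at 1 of the 21 bases, WRKY40 and WRKY31 at 3, and WRKY6 and WRKY47 at 4. Over the whole coding sequence, 77.6% of aligned bases were identical between WRKY18 and WRKY60, and 64.0% between WRKY18 and WRKY40. The closest pair was WRKY31 and WRKY42, with 80.5%. For 9 members, the transcript with the longest coding sequence shared no run of 50 bases with another locus. Other transcripts of these members were not checked. In WRKY40, 31 of 1276 such runs, 2.43%, also occur in AT1G80850 or AT3G32090. AT1G80850 is an antisense neighbour that overlaps WRKY40 by 51 bases. It had 153 and 109 counts in protoplasts, against 218 and 228 in leaf. These are few beside the 28679 and 21977 protoplast counts of WRKY40, but not beside its 1031 and 1057 leaf counts. For AT3G32090 no counts are given here.

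Levels are given as counts-per-million (CPM), with library sizes adjusted by the trimmed mean of M-values (TMM). WRKY18, which can both promote and restrain defence, lies on chromosome 4, positions 15382777 to 15385100 on the plus strand of TAIR10.1, with 5 exons. It was at 832.1 and 829.5 CPM in the protoplast libraries and at 5.28 and 6.24 CPM in the leaf libraries. Both protoplast libraries lay far above both leaf libraries, and the protoplast libraries were close to each other. WRKY18 averaged 830.8 ± 1.9 CPM in protoplasts and 5.76 ± 0.68 CPM in leaf (SD, n = 2 each), and its log2 fold change was 7.17 ± 0.08 (SE; edgeR quasi-likelihood adjusted p = 6.62e-16). Of all tested genes 3.12% had a higher log2 fold change. The raw counts behind these levels were 30813 and 24816 in protoplasts, against 294 and 360 in leaf.

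WRKY40, a repressor of immune and abscisic acid response genes that acts with WRKY18, lies on chromosome 1, positions 30383561 to 30385499 on the plus strand, with 4 exons. It was at 774.5 and 734.6 CPM in protoplasts, against 18.5 and 18.3 CPM in leaf. The groups stood apart, and the leaf level was the highest of the 10 members. Means were 754.5 ± 28.2 CPM in protoplasts and 18.4 ± 0.13 CPM in leaf (SD, n = 2 each), and the log2 fold change was 5.36 ± 0.06 (SE; edgeR quasi-likelihood adjusted p = 7.59e-16). Its raw counts were 28679 and 21977 in protoplasts and 1031 and 1057 in leaf.

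WRKY60, which completes group IIa, lies on chromosome 2, positions 10629662 to 10631413 on the plus strand, with 5 exons. It went the other way: it was at 0.972 and 0.602 CPM in protoplasts, against 5.19 and 5.34 CPM in leaf. Both protoplast libraries lay below both leaf libraries, and the protoplast values rest on 36 and 18 counts, against 289 and 308 in leaf. The log2 fold change was -2.71 ± 0.20 (SE; edgeR quasi-likelihood adjusted p = 5.51e-08), from means of 0.787 ± 0.262 CPM in protoplasts and 5.26 ± 0.11 CPM in leaf (SD, n = 2 each). Its leaf level was thus close to the 5.76 CPM of WRKY18, and its protoplast level was below 1 CPM.

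**Figure D2:**
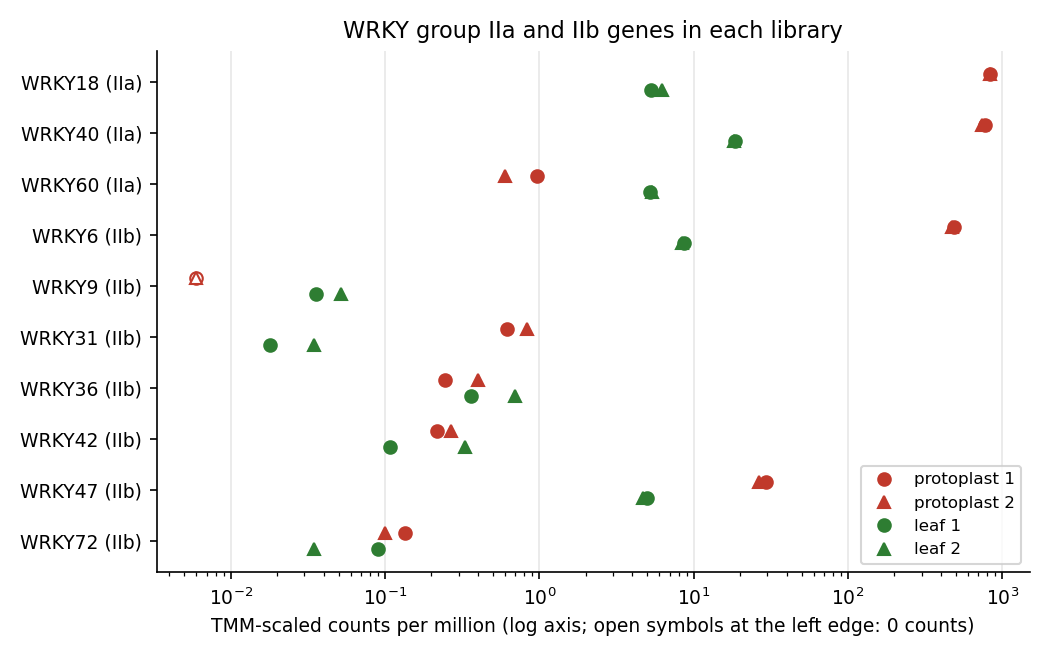
TMM-scaled CPM of each of the 10 members in each of the 4 libraries, on a log axis, with protoplast and leaf libraries as separate symbols and open symbols at the left edge for 0 counts. WRKY18, WRKY40 and WRKY6 lie between 471.4 and 832.1 CPM in protoplasts, against 5.28 to 18.5 CPM in leaf, and WRKY60 lies lower in protoplasts.

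Among the group IIb genes, WRKY6 had the highest protoplast level. WRKY6 is known as a senescence- and wound-responsive factor and a repressor of PHO1, and lies on chromosome 1, positions 23016569 to 23019494 on the minus strand, with 6 exons. It was at 482.3 and 471.4 CPM in protoplasts, against 8.70 and 8.44 CPM in leaf, with 17858 and 14104 counts in protoplasts and 485 and 487 in leaf. The libraries of each group were close together and the groups far apart. Means were 476.8 ± 7.7 CPM in protoplasts and 8.57 ± 0.19 CPM in leaf (SD, n = 2 each), with a log2 fold change of 5.80 ± 0.06, 55.6-fold (SE; edgeR quasi-likelihood adjusted p = 6.13e-16).

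WRKY47, linked in Arabidopsis to cell wall genes under aluminium stress, lies on chromosome 4, positions 744804 to 748554 on the plus strand. It was at 29.6 and 26.7 CPM in protoplasts, against 4.99 and 4.66 CPM in leaf. The groups did not overlap, and the rise was smaller than that of WRKY6. Its log2 fold change was 2.55 ± 0.09, 5.84-fold (SE; edgeR quasi-likelihood adjusted p = 2.98e-11), and 12.2% of all tested genes had a higher one.

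WRKY31 was scarce. Its counts were 23 and 25 in protoplasts, against 1 and 2 in leaf, that is 0.621 and 0.836 CPM in protoplasts and 0.0179 and 0.0347 CPM in leaf. Both protoplast libraries were above both leaf libraries. The ratio of summed, depth-scaled counts was 27.1, with an exact 95% interval for counting error of 8.74 to 136. The fitted log2 fold change of 4.63 ± 0.55 (SE; edgeR quasi-likelihood adjusted p = 6.75e-06) depends on a prior count at such low leaf counts.

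WRKY36, which is known to bind the HY5 promoter and to interact with the UV-B receptor UVR8, had 9 and 12 counts in protoplasts, against 20 and 40 in leaf. On the CPM scale these are 0.243 and 0.401 in protoplasts and 0.359 and 0.693 in leaf, and the groups overlap. The log2 fold change was -0.74 ± 0.44 (SE; edgeR quasi-likelihood adjusted p = 0.141). This value was not called here but depended on the scaling and on 1 library. It was -1.07 (adjusted p = 0.0378) with upper-quartile factors, -1.54 (adjusted p = 0.00259) with library size only and -1.14 (adjusted p = 0.0366) without leaf replicate 1.

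The other 3 members were below the filter. WRKY42, a partner of WRKY6 in the control of PHO1, had 8 counts in each protoplast library, against 6 and 19 in leaf, a depth-scaled ratio of 1.08 with an exact 95% interval of 0.541 to 2.11. WRKY72 had 5 and 3 counts in protoplasts, against 5 and 2 in leaf, a ratio of 1.94 with an interval of 0.614 to 6.27. For both, no difference was detectable at this depth. WRKY9, known from root suberin and salt tolerance, had 0 counts in both protoplast libraries, against 2 and 3 in leaf. A count of 0 allows up to 3 counts, 0.0810 and 0.100 CPM in the protoplast libraries, so no fold is given. The gene overlaps an antisense neighbour, AT1G68160, by 34 bases, and the sources used here do not state whether counting used the strand.

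**Figure D3:**
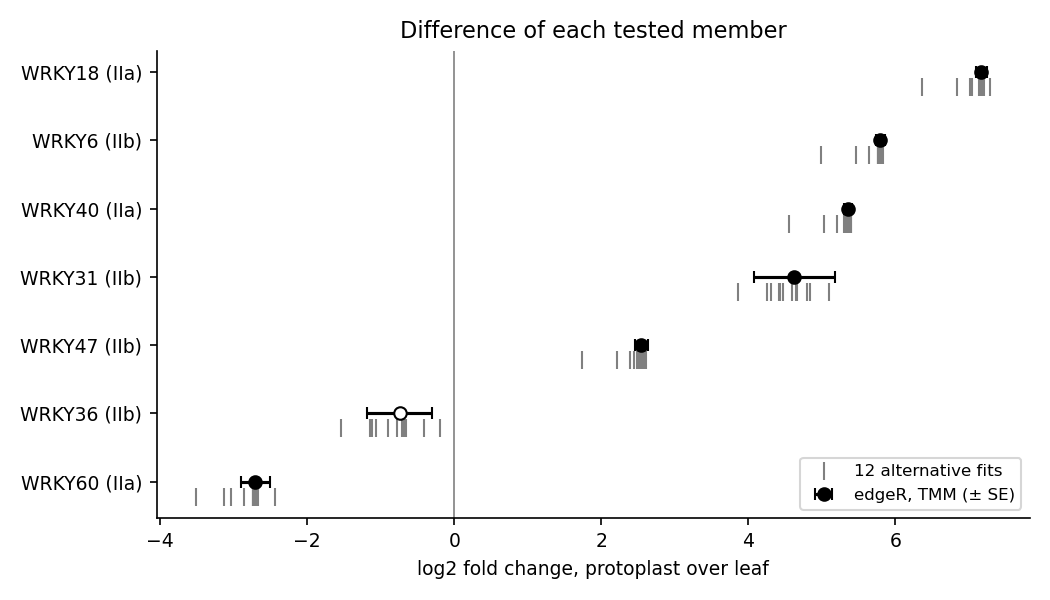
Log2 fold change of each of the 7 tested members, protoplast over leaf, with bars for the SE; filled circles mark members called at an adjusted p under 0.05, the open circle marks WRKY36, and grey ticks are the values in 12 alternative fits. WRKY18, WRKY40, WRKY6, WRKY31 and WRKY47 stay right of 0 and WRKY60 stays left of 0 in every alternative drawn.

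Levels can be ranked between genes only per length, so CPM was divided by the kilobases of the RefSeq transcript. On this scale WRKY40 led in protoplasts with 569 ± 21 CPM per kb, followed by WRKY18 with 477 ± 1.1, WRKY6 with 206 ± 3.3, WRKY47 with 14.4 ± 1.1 and WRKY60 with 0.613 ± 0.204 (SD, n = 2). Below them came WRKY31, WRKY36, WRKY42, WRKY72 and WRKY9, from 0.335 CPM per kb down to 0. From WRKY40 down to WRKY72, neighbours differed by more than the sum of their SDs except WRKY31 and WRKY36, and WRKY36 and WRKY42. The order of WRKY40 and WRKY18 rests on the transcript lengths used, 1.325 kb for WRKY40 and 1.74 kb for WRKY18. WRKY18 has 3 annotated transcripts, and the annotation behind the counts is not named. Without division by length WRKY18 was the higher in protoplasts, 830.8 against 754.5 CPM, so their order is not settled. An SD of 2 libraries need not cover counting error at few counts. WRKY42 had 8 and 8 counts and WRKY72 had 5 and 3, so their order is not settled. The step from WRKY60 to WRKY31 was narrow, 0.278 CPM per kb against summed SDs of 0.274, and is not settled either. WRKY72, at 0.0589 CPM per kb, could not be told from WRKY9, whose 0 counts allow up to 0.0613 and 0.0758 CPM per kb.

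In leaf the same scale began with WRKY40 at 13.9 ± 0.10 CPM per kb, then WRKY60 at 4.10 ± 0.08, WRKY6 at 3.70 ± 0.08, WRKY18 at 3.31 ± 0.39 and WRKY47 at 2.47 ± 0.12 (SD, n = 2). WRKY6 and WRKY18 did not differ beyond their spread. The remaining members lay between 0.330 and 0.0121 CPM per kb, and none of the neighbours from WRKY36 downward differed beyond the spread. By mean level per kb WRKY60 thus had rank 5 in protoplasts and rank 2 in leaf, and WRKY18 had rank 2 in protoplasts and rank 4 in leaf. These ranks depend on the transcript lengths used. By mean CPM without length, WRKY60 at 5.26 lay below WRKY6 at 8.57 and WRKY18 at 5.76 in leaf.

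As shares of the summed level of the 10 genes per kb, WRKY18 made up 37.2% and 38.2% in protoplasts, against 10.9% and 12.7% in leaf. WRKY60 made up 0.0588% and 0.0375% in protoplasts, against 14.6% and 14.7% in leaf. WRKY40 kept a similar share, 45.4% and 44.4% in protoplasts and 50.4% and 48.9% in leaf. The ratio of WRKY18 to WRKY40 per kb was 0.818 and 0.860 in protoplasts, against 0.217 and 0.259 in leaf, so the group IIa make-up shifted toward WRKY18. WRKY40 exceeded WRKY60 by 772-fold and 1183-fold in protoplasts, against 3.46-fold and 3.33-fold in leaf. These ratios are taken within a library and do not depend on the scaling between libraries. Their sizes, and those of the shares, do depend on the transcript lengths used. In raw counts the 10 genes together took 0.162% and 0.155% of the protoplast libraries, against 0.00572% and 0.00583% of the leaf libraries.

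**Figure D4:**
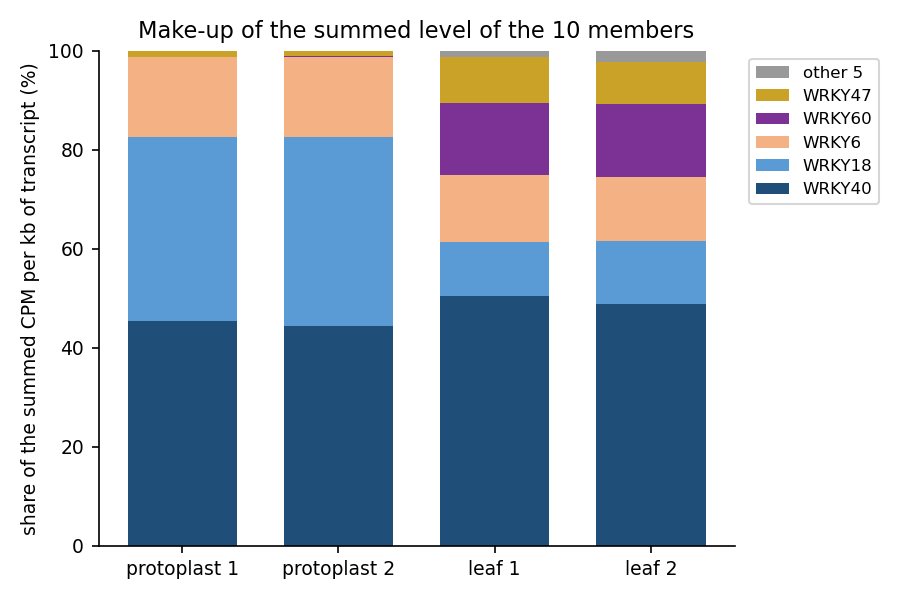
Share of each member in the summed CPM per kb of the 10 genes, in percent, stacked for each protoplast and leaf library. WRKY18 widens to 37.2% and 38.2% in protoplasts, against 10.9% and 12.7% in leaf, while WRKY60 is 0.0588% and 0.0375% in protoplasts, against 14.6% and 14.7% in leaf.

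Genes that are known as targets or partners of the group IIa proteins in Arabidopsis were set beside them. No binding was measured here. Of 15 listed, 14 had a row and were tested. Of these, 13 rose and 1 fell, while 39.8% of all tested genes rose and 40.7% fell. The median log2 fold change was 2.42, against -0.04 over all tested genes. The list mixes genes that WRKY40 is reported to repress with genes reported as activated. It was drawn up with results of these data known, so these counts and the median are a description only and test no link to the group IIa genes. RRTF1, an ERF factor whose promoter WRKY40 binds, was at 835.9 and 847.8 CPM in protoplasts, against 6.14 and 5.84 CPM in leaf, a log2 fold change of 7.13 ± 0.07 (SE). JAZ8, a jasmonate repressor and another bound target, had a log2 fold change of 8.81 ± 0.24 (SE), from 1211 and 748 counts in protoplasts and 3 and 4 in leaf.

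AOX1A, the alternative oxidase that WRKY40 represses, was at 372.8 and 398.0 CPM in protoplasts, against 23.7 and 21.5 CPM in leaf, a log2 fold change of 4.09 ± 0.07 (SE). EDS1 and PAD4, lipase-like proteins of basal immunity, rose less, by log2 fold changes of 1.62 ± 0.07 and 1.98 ± 0.08 (SE). Among genes of the list tied to abscisic acid or dehydration, ABI5, a bZIP factor, had 83 and 54 counts in protoplasts, against 9 and 10 in leaf, and a log2 fold change of 3.58 ± 0.30, MYB2 one of 2.64 ± 0.22 and DREB1A one of 2.39 ± 0.12 (SE). DREB2A, a dehydration-response factor, had 20321 and 17788 counts in protoplasts, against 279 and 321 in leaf, and a log2 fold change of 6.76 ± 0.08 (SE). RAB18, a dehydrin, was the single gene on the list that fell, at 18.3 and 22.5 CPM in protoplasts, against 38.3 and 39.8 CPM in leaf. Its log2 fold change was -0.95 ± 0.08 (SE). CHLH, the chlorophyll synthesis subunit reported to bind these WRKY proteins, rose by a log2 fold change of 1.00 ± 0.05 (SE). The antenna gene LHCB2.4, listed as LHCB2.3 in the reference, rose by 0.37 ± 0.05 (SE) here, was not called with upper-quartile factors (adjusted p = 0.404) and fell with library size only, with a log2 fold change of -0.43.

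The list for group IIb went both ways, as the background did. Of 10 listed genes 9 had a row and 8 were tested. Of these, 3 rose, 3 fell and 2 were not called, near the shares over all tested genes, 39.8% higher and 40.7% lower. The median log2 fold change was 0.01, against -0.04 over all tested genes. CYP94B3, a jasmonoyl-isoleucine hydroxylase reported as a WRKY9 target in roots, was at 975.9 and 957.5 CPM in protoplasts, against 3.75 and 3.69 CPM in leaf, a log2 fold change of 8.02 ± 0.07 (SE). CYP86B1, the other reported WRKY9 target, which makes suberin monomers, had 1 and 0 counts in protoplasts, against 58 and 61 in leaf, which is 70.2-fold lower (12.4 to 2797, exact interval for counting error). The reported WRKY9 targets thus moved in opposite directions, while WRKY9 itself was at or near 0 counts. RAV1, a factor that WRKY6 is reported to repress, was at 66.6 and 70.1 CPM in protoplasts, against 5.13 and 3.80 CPM in leaf, a log2 fold change of 3.94 ± 0.10 (SE).

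PHO1, the phosphate exporter that WRKY6 and WRKY42 repress, had 2 and 0 counts in protoplasts, against 1883 and 2116 in leaf, 1180-fold lower (326 to 9748, exact interval for counting error). PHO1 is known from the vasculature, and markers of vascular cells were low in the same libraries, as given below. FRK1, the receptor kinase gene that WRKY6 activates, had 28 and 21 counts in protoplasts, against 8 and 3 in leaf, and a log2 fold change of 2.88 ± 0.45 (SE). HY5, the light-signalling factor downstream of WRKY36, was at 61.3 and 70.6 CPM in protoplasts, against 61.9 and 61.7 CPM in leaf. Its libraries overlapped, and it was not called (edgeR quasi-likelihood adjusted p = 0.212). UVR8 fell slightly, at 43.5 and 45.8 CPM in protoplasts, against 56.0 and 51.1 CPM in leaf, a log2 fold change of -0.26 ± 0.06 (SE). PR1, a salicylate marker and reported WRKY6 target, was not called (edgeR quasi-likelihood adjusted p = 0.618). With upper-quartile factors or library size only, 3 rose and 5 fell, with HY5 and PR1 added to those that fell. Over all 20200 tested genes, 6183 rose and 11047 fell with upper-quartile factors. With library size only, 4326 rose and 14057 fell. Without protoplast replicate 1, HY5 rose by a log2 fold change of 0.18 (edgeR quasi-likelihood adjusted p = 0.0221).

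Markers of the cell types of the leaf moved between the groups. Of 6 mesophyll markers tested 5 rose, and their summed level was 49937 and 50454 CPM in protoplasts, against 34119 and 34493 CPM in leaf. That direction depends on the scaling: with library size only, applied to the markers after the data were seen, 1 rose and 4 fell, and the sums were 38123 and 37777 CPM in protoplasts, against 45141 and 45560 CPM in leaf. All 7 tested epidermis markers fell, with sums of 9.56 and 9.69 CPM in protoplasts, against 1034 CPM in each leaf library, and PDF1 and CER4 were at 0 counts in protoplasts. All 6 guard cell markers fell (2.54 and 2.44 CPM in protoplasts, 44.3 and 45.3 in leaf, ALMT12 at 0 in protoplasts), as did all 5 companion cell markers (14.7 and 15.1 CPM in protoplasts, 759.6 and 799.8 in leaf). Both phloem parenchyma markers fell (12.9 and 12.1 CPM in protoplasts, 252.3 and 265.3 in leaf), and all 6 xylem markers fell (1.86 and 2.14 CPM in protoplasts, 29.9 and 33.4 in leaf, VND7 at 0 in protoplasts). Of 3 tested trichome markers 2 fell and 1 rose, with sums of 11.96 and 11.97 CPM in protoplasts, against 10.4 and 10.0 CPM in leaf. TRY made up most of these sums, with 11.86 and 11.87 CPM in protoplasts and 8.56 and 8.06 CPM in leaf. GL2 had 1 and 0 counts in protoplasts, against 52 and 57 in leaf, and MYB23 was at 0 in protoplasts. With library size only all 3 fell, and the trichome sums were 9.13 and 8.96 CPM in protoplasts, against 13.8 and 13.2 CPM in leaf; the marker that rose, TRY, was not called with upper-quartile factors (adjusted p = 0.0674). The epidermis, guard cell, companion cell, phloem parenchyma and xylem markers that fell did so under each of the 4 other scalings. In bulk samples, fewer cells of a type and less RNA per cell cannot be told apart. The part of these losses in the lower levels of WRKY60, PHO1 and CYP86B1 was not tested.

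The 57 other WRKY genes in the table give the setting within the family. Of 47 that were tested, 30 rose, 13 fell and 4 were not called, with a median log2 fold change of 1.48. At least 16-fold was the rise of 16 of them. Over all 20200 tested genes, 39.8% rose, 40.7% fell and 7.97% rose at least 16-fold, with a median of -0.04. With library size only, 26 of the 47 rose and 17 fell, with a median of 0.68. Over all tested genes 4326 then rose and 14057 fell, with a median of -0.85. Among the 54 tested WRKY genes, members included, counted from the highest log2 fold change, WRKY18 had rank 7, WRKY6 rank 9, WRKY40 rank 14 and WRKY60 rank 51. WRKY61, often placed in group IIb but not on the list of members, was looked at after its values were seen because it shares the intron position. It had 466 and 368 counts in protoplasts, against 3 and 2 in leaf, and averaged 12.4 ± 0.2 CPM in protoplasts and 0.0442 ± 0.0136 CPM in leaf (SD, n = 2 each). Its log2 fold change was 8.05 ± 0.23 (SE; edgeR quasi-likelihood adjusted p = 3.20e-12), above that of every member.

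**Figure D5:**
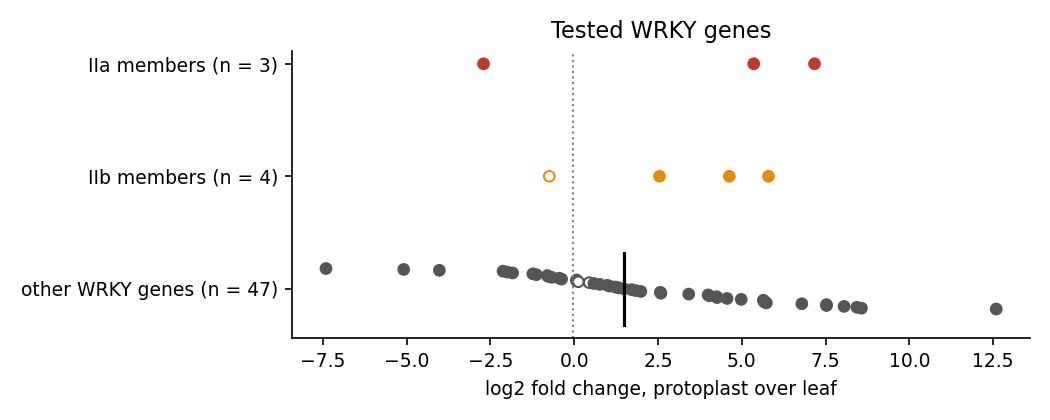
Log2 fold change, protoplast over leaf, of the tested WRKY genes, with group IIa members, group IIb members and other WRKY genes on separate lines; filled circles mark an adjusted p under 0.05, the black bar is the median of the other WRKY genes (1.48) and the dotted line the median of all tested genes (-0.04). WRKY60 lies far to the left of the other group IIa members, and the other WRKY genes spread over both directions.

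Genes with patterns most like those of the group IIa members were found by the Euclidean distance between centred log2(CPM + 0.5) values over the 4 libraries. Only 7518 tested genes with a RefSeq symbol other than the locus tag and a mean of at least 1 CPM were compared. Genes without such a symbol may lie nearer. With 2 groups of 2 libraries this distance mostly reads the size of the difference. Nearest to WRKY18 were AGP2 (distance 0.0444), B120 (0.0471) and ACS8 (0.134), an ACC synthase of ethylene production. ACS8 had a fitted log2 fold change of 9.23 ± 0.12 (SE), above that of WRKY18, since the pseudocount of 0.5 compresses its leaf level of 0.126 and 0.173 CPM. Nearest to WRKY40 were MAPKKK14 (0.0524), JAR1 (0.0552), which conjugates jasmonate to isoleucine, and NAC102 (0.0595). The genes nearest to WRKY60 were ABCG21 (0.0749), TCP17 (0.120) and GSTF4 (0.136). All 3 were at 0.702 CPM or less in each protoplast library, and ABCG21 was at 4.45 and 4.58 CPM in leaf.

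The authors' deposited table gives the same directions. A DESeq2 run on the same counts reproduced that table, so it is not a separate test. In the authors' deposited table the log2 fold change was 7.19 for WRKY18, 5.38 for WRKY40, -2.70 for WRKY60 and 5.82 for WRKY6. WRKY36 had -0.70 with an adjusted p of 0.426 in the authors' deposited table, and WRKY31 had 4.80 with an adjusted p of 3.45e-05.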

How the data were processed

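The members and gene lists were chosen with earlier results of these data known. The authors deposited whole-number counts per locus, not normalized, and their own comparison table. Per the file headers, that table holds a signal (the mean of normalized counts over all samples), a log2 fold change with its SE, a score (the test statistic) and, for each gene, the raw p-value and the adjusted one. The submitters' processing notes name STAR and DESeq and no versions; the sources used here name no build, annotation, read counter or strand setting. The directional kit marks strand, but how the counting used it is not known, so overlapping genes are uncertain. A DESeq2 1.42.0 run on the deposited counts matched the authors' deposited table to within 6.52e-09 in log2 fold change.

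Library totals were 48503141 and 39958035 for protoplasts and 42121436 and 43685947 for leaf. Replicates differed by more than sampling noise (chi-square per degree of freedom 10.4 in protoplasts and 5.20 in leaf). Counts were fitted over all genes with edgeR 4.0.16 in R 4.3.3: filterByExpr left 20200 of 24904 loci, TMM factors were 0.764 and 0.749 for protoplasts and 1.323 and 1.321 for leaf, and the quasi-likelihood F test had group as its only term, with Benjamini-Hochberg adjustment and a threshold of 0.05. Fold changes are protoplast over leaf; the SE is the absolute log2 fold change over the root of the F statistic. An exact permutation test of 2 libraries against 2 cannot give a p below 0.333, so none is given for single genes. Intervals (exact, 95%) and the limit of 3 counts for a count of 0 reflect counting error alone, because the reads carry no molecular identifiers and are not independent. The scripts were tested on simulated data. Few genes changed in those data, against 80.5% of tested genes called here, so they do not test the scaling.

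Same-numbered libraries did not deviate together (correlation -0.05 over 20200 genes), and nothing in the labels pairs them. The named genes include the 10 members and genes of both target lists. Of those lists CYP71A13 and CYP81F2, which rose, and XTH17, which was not tested, are named only here. ABI4 and PHT1;1 had no row. For each group IIa member the 3 genes with the nearest pattern are also named, among genes with a RefSeq symbol and a mean of at least 1 CPM. LHCB2.4 carries another symbol in the reference. The alternatives were RLE, upper-quartile and library-size scaling, scaling to 8 reference genes, no filter, DESeq2, limma-voom (limma 3.58.1), a replicate block, and leaving out each library. Of 24904 loci, 24651 were matched by locus tag to RefSeq's TAIR10.1; gene models, the transcript with the longest coding sequence, and sequences come from it.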

Additional observations from a re-analysis of the deposited data

How the results depend on the processing

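In the 12 alternatives the 6 called members kept their direction and their side of the threshold in 72 of 72 fits, with log2 fold changes of 6.37 to 7.29 for WRKY18, 4.55 to 5.39 for WRKY40, -3.51 to -2.44 for WRKY60, 4.99 to 5.83 for WRKY6, 3.85 to 5.10 for WRKY31 and 1.74 to 2.61 for WRKY47. The number of members that rose was 5 in each alternative. The number that fell was 2, with WRKY36 added, under upper-quartile factors (-1.07), library size only (-1.54) and without leaf replicate 1; leaving out each library in turn gave 1 to 2 members that fell, and -1.14 to -0.20 for WRKY36. The cause was not tested. The replicate block, which shares only a number between libraries, gave 7.17 for WRKY18, 5.36 for WRKY40 and -2.71 for WRKY60 and changed no call among the members; it called 15650 genes in all, against 16267 without it. Scaling moved the background: the median over all genes was -0.04 with TMM, -0.37 under upper-quartile scaling, -0.85 under library size and -0.20 with the 8 reference genes, and the share of calls that were higher was 49.4% with TMM, 35.9% under upper-quartile and 23.5% under library-size scaling. WRKY9, WRKY42 and WRKY72 were tested without a filter (edgeR adjusted p = 0.119, 0.903 and 0.359) and are limited by depth.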
